A study of Mus musculus with 32 samples.

Results

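Intra-islet MΦs sampled 1 week after the end of VEGF-A induction (1wk WD) were compared with MΦs from islets that were never induced (No Dox). The samples were taken by their labels, as CD11b+ MΦs of these time points, which gave 8 of the 32 samples of the series, 4 in each group. All mice of both groups carried the RIP-rtTA, TetO-VEGF-A, and MIP-GFP transgenes. In these mice the rat insulin 2 promoter drives the Dox-responsive transactivator in β cells, so that doxycycline (Dox) switches on human VEGF-A there, and the mouse insulin 1 promoter drives GFP. The No Dox mice received no Dox, and the 1wk WD mice had received Dox for 1 week and then none for 1 week. Mice were adults, and no age is given for single samples. Islets of several mice were pooled, dispersed, and sorted for CD11b, and the amplified RNA was sequenced. A sample is therefore a pool of mice, and both groups differ by the earlier Dox exposure as well as by the induced VEGF-A, which cannot be told apart here. The comparison addresses how the transcriptome of MΦs differs from baseline in the period in which VEGF-A has normalized and β cells recover.

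MΦs of the islet lie along the capillaries and take up material from neighboring cells. They are known for presenting antigen, for clearing dying cells, and for secreting chemokines, complement proteins, growth factors, and matrix-degrading enzymes. CD11b, the integrin subunit encoded by *Itgam*, is also carried by monocytes, neutrophils, natural killer cells, and some dendritic cells, so a CD11b+ sort can hold these cells too. In sorted samples a higher score can come from more RNA per cell or from more cells of a kind, and these cannot be told apart.

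The values are scores, which are whole numbers from 1 upward that give the authors' normalized expression of each gene. Scores are not corrected for gene length, so levels are compared between samples and not between genes. Scores of the 8 samples summed to 32756575 to 53441769, and the highest sum belonged to No Dox replicate 2. In that sample 10 markers of acinar cells, the enzyme-secreting cells of the exocrine pancreas, took 24.7% of the summed score. Their share was 5.89% in No Dox replicate 4, 0.329% in replicate 1, and 0.0957% in replicate 3. At 1wk WD it was 0.685% in replicate 1 and 0.00658 to 0.00942% in the others. None of the 10 acinar markers passed the limma test below (all 10 had an unadjusted p under 0.05), and their scores spread widely within No Dox (for *Pnlip*, pancreatic lipase, from 4300 to 660876). The part that acinar RNA has in the results was not tested, and the number of genes found without No Dox replicate 2 is given below.

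MΦ markers were high in every sample. *Csf1r*, the receptor for CSF1 and a defining gene of MΦs, scored 60872, 54993, 38674, and 65946 in No Dox replicates 1 to 4, and 67905, 69938, 64649, and 70526 in 1wk WD replicates 1 to 4. Values of 4 samples are given in this order throughout. The groups overlapped (log2 fold change 0.34, SE 0.17, limma adjusted p = 0.335). *Mrc1*, the mannose receptor CD206, scored 52243, 41601, 56747, and 38848 at No Dox, and 70893, 71880, 70507, and 79570 at 1wk WD. These groups did not overlap, and the difference fell short of the test (log2 fold change 0.64, SE 0.15, adjusted p = 0.0601). Of the 12 MΦ markers tested, 0 passed the limma test (10 had an unadjusted p under 0.05), 7 had non-overlapping groups, all of them higher at 1wk WD (5.01% of all genes tested were), and the summed score was 334775 to 422158 at No Dox and 475387 to 568212 at 1wk WD. *Itgam* itself, the gene of the protein used for sorting, went the other way. It scored 38275, 29382, 45478, and 32274 at No Dox, and 29800, 21281, 20309, and 20945 at 1wk WD, with overlapping groups (log2 fold change -0.65, SE 0.17, adjusted p = 0.0761).

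Of 14821 genes tested with limma on log2(score + 1), 94 passed (0.634%). To pass, or to be called, a gene had to differ at least 2-fold with a p below 0.05 after Benjamini-Hochberg adjustment. Higher at 1wk WD were 64 genes (0.432%) and lower were 30 (0.202%). In all 94 genes the 4 values of one group lay entirely above those of the other. Groups did not overlap in 1383 genes in all (9.33%), 743 of them higher at 1wk WD (5.01%) and 640 lower (4.32%). With the p left unadjusted 729 genes would pass (4.92%), 386 of them higher (2.6%) and 343 lower (2.31%), and 184 genes had an adjusted p below 0.05 at any fold change (1.24%). At any fold change 2579 genes had an unadjusted p below 0.05 (17.4%). The rises included chemokines, complement components, interferon-inducible GTPases, and the adhesion molecule *Vcam1*, and the falls included *Gna14*, *Gnai1*, and *Il28ra*. The median log2 fold change over all genes was 0.0012.

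**Figure D1:**
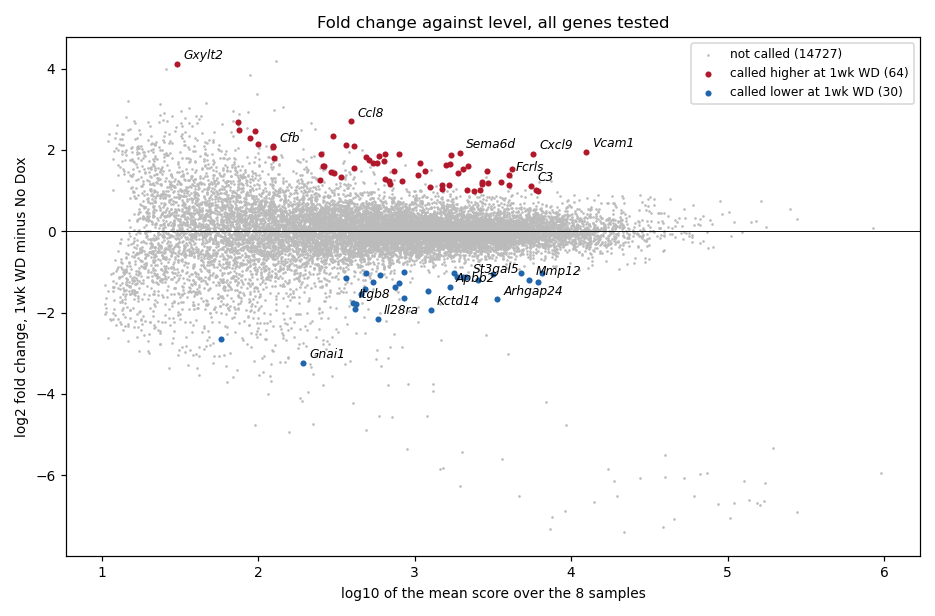
Each point is 1 of the 14821 genes tested, with the log10 of its mean score over the 8 samples on the x axis and its log2 fold change, 1wk WD minus No Dox, on the y axis. The 64 genes called higher are red and the 30 called lower are blue; the gray points far below 0 at high scores include the 10 acinar markers, of which 0 passed the test.

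The number of genes rested on single samples and on how their spread was estimated. It was 23 without 1wk WD replicate 2, 23 without replicate 3, and 33 without replicate 4, and 125 without replicate 1, the 1wk WD sample with the most acinar RNA. Without No Dox replicate 2 it was 103, and 73 of the 94 genes were among them. Fitting only the 8 samples, without the 2 samples at 1wk Dox that lend an estimate of the spread, gave 49 genes. With 1 estimate of the spread for all levels of expression it was 10, and with the lowest-scoring genes kept in the fit it was 11. In every one of the 8 fits that left out 1 sample, 17 genes were called. The 10 that were higher were *Ccl7*, *Cd38*, *Cd4*, *Fcrls*, *Igfbp4*, *Il18bp*, *Npl*, *Ptgs1*, *Sema6d*, and *Vcam1*, and the 7 that were lower were *Apbb2*, *Arhgap24*, *Gna14*, *Il28ra*, *Kctd14*, *St3gal5*, and *Stard13*.

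**Figure D2:**
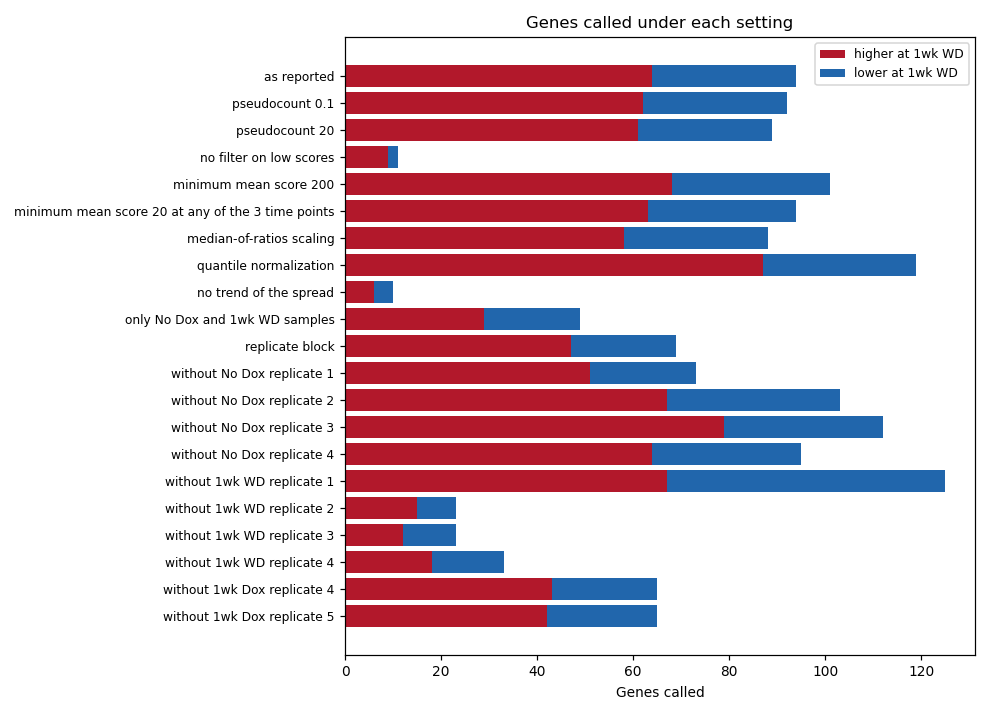
Bars give the number of genes called under each setting that kept the adjusted p, higher at 1wk WD in red and lower in blue. The count runs from 10 genes, when the trend of the spread was left out, to 125 without 1wk WD replicate 1, with 94 as reported.

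Complement is the cascade of plasma proteins that tags cells and particles for uptake. The list that holds its genes and those of Fc receptors had the most calls, together with the list of chemokines. Of 23 genes for complement and Fc receptors, 5 rose and 0 fell (0.432% of all genes tested were called higher), and 20 had a higher mean log2 score at 1wk WD (median 0.67). Without 1wk WD replicate 2, 3, or 4 only *Fcrls* of these was called, and 3 genes were called without either 1wk Dox sample in turn and 2 without both. With low-scoring genes kept, or without a trend, 0 genes of either list were called. *C4b*, a component of the classical pathway, scored 383, 213, 158, and 258 at No Dox, and 593, 968, 711, and 1429 at 1wk WD. Every 1wk WD sample lay above every No Dox sample (log2 fold change 1.86, SE 0.32, adjusted p = 0.0218). *C3*, on which all pathways of the cascade converge, scored 4336, 2717, 4043, and 2684, and then 4581, 7129, 8039, and 10942. Here 1wk WD replicate 1 lay just above the highest No Dox sample (log2 fold change 1.12, SE 0.24, adjusted p = 0.0424), and without No Dox replicate 2 the gene was no longer called (adjusted p = 0.0732). Factor B (*Cfb*), the protease of the alternative pathway, scored 79, 31, 47, and 38, and then 153, 191, 208, and 246. Its values rose 4.22-fold (log2 fold change 2.08, SE 0.36, adjusted p = 0.0223), and without No Dox replicate 2 the log2 fold change was 1.90. *C2* (log2 fold change 1.81, SE 0.34, adjusted p = 0.028) and the gene models *Gm20547* (2.09) and *CT025759.1* (2.15) overlap *Cfb* on the same strand of chromosome 17, where mm9 places *Cfb* at 34993319 to 34999463. Reads there could be counted for more than 1 of these 4 genes, so they may not be separate rises. Stromal cells are known to make complement proteins too. The 10 stromal and pericyte markers summed to 2963, 9868, 11462, and 6109 at 1wk WD and to 3178 to 6207 at No Dox, so that replicate 1, the lowest 1wk WD sample in *C3*, *C4b*, and *Cfb*, had the lowest sum, and replicate 4, the highest in these 3 genes, had a sum within the No Dox range.

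Among the receptors on this list and the chains of C1q, 1 gene was called. *Fcrls*, an Fc receptor-like protein well known from microglia, scored 2254, 1967, 2547, and 2122 at No Dox, and 4273, 6487, 5803, and 6771 at 1wk WD. The lowest 1wk WD sample lay well above the highest No Dox sample (log2 fold change 1.38, SE 0.17, adjusted p = 0.00488). *C1qc*, a chain of C1q, scored 12261, 18479, 10385, and 20685, and then 26321, 28907, 24565, and 28328. These groups did not overlap, and the log2 fold change of 0.86 fell short of the test (SE 0.20, adjusted p = 0.0531). *C1qa* scored 4513, 4398, 894, and 7958, and then 7400, 8697, 7759, and 7907, and No Dox replicate 4 lay within the 1wk WD samples (log2 fold change 1.20, SE 0.49, adjusted p = 0.231). Members with a lower mean log2 score at 1wk WD included *Itgam*, given above, which is also a subunit of complement receptor 3, and *Itgax* (-0.14). In 13 of the 23 genes the groups did not overlap, all higher at 1wk WD, where 5.01% of all genes tested were.

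**Figure D3:**
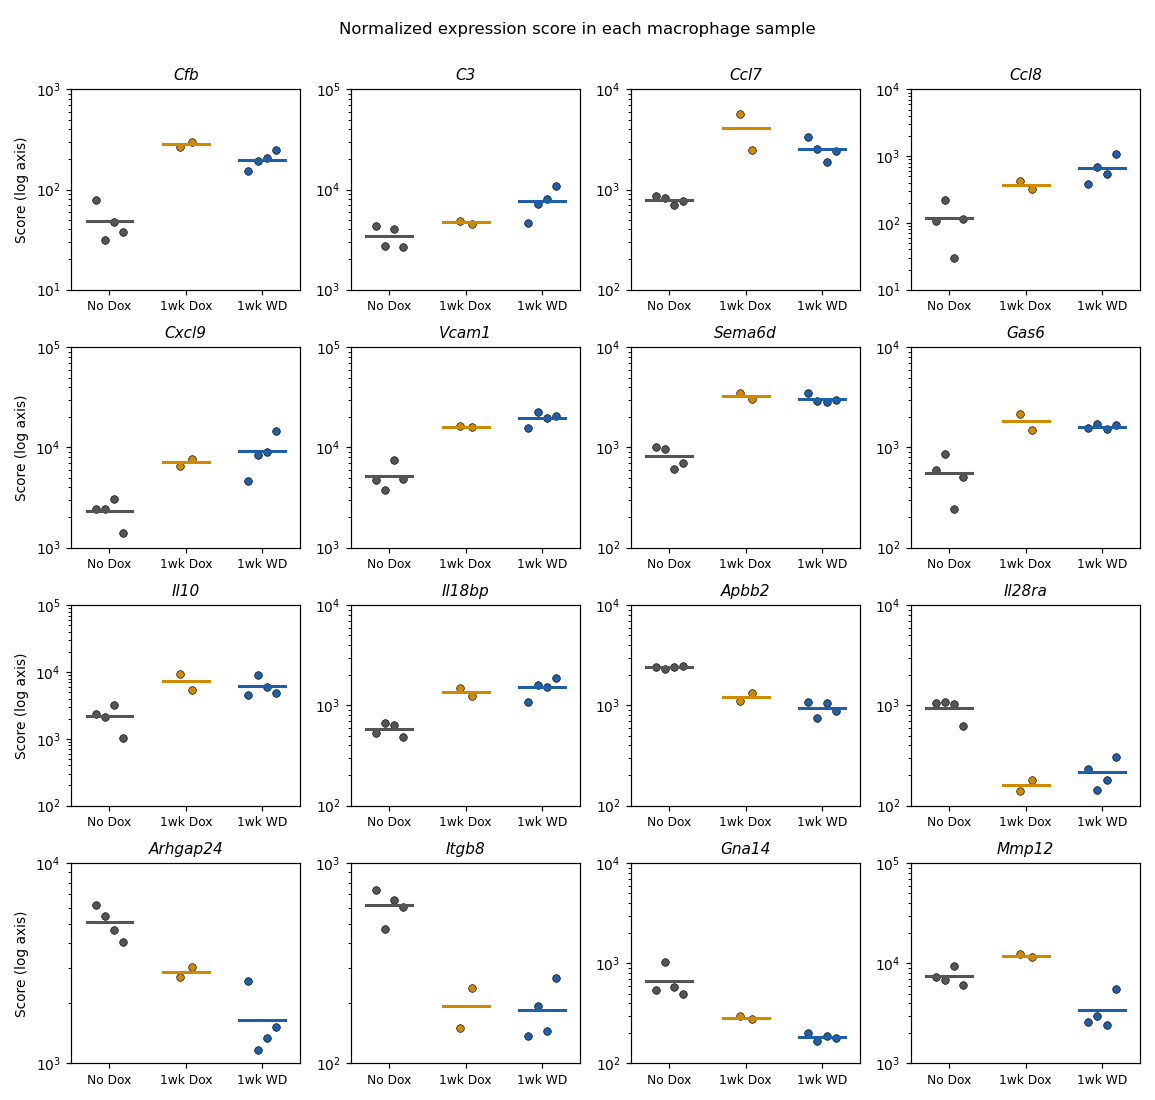
Score of 16 called genes (log axis) in the 4 No Dox, 2 1wk Dox, and 4 1wk WD MΦ samples; points are samples and lines are group means. The first 10 genes rose at 1wk WD and the last 6 fell, with no overlap between No Dox and 1wk WD; *Mmp12* is the one of the 16 whose 1wk Dox samples lay beyond No Dox in the other direction.

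Chemokines, which attract leukocytes, rose in 5 of 23 genes, and 0 fell (0.432% of all genes tested were called higher and 0.202% lower). Without 1wk WD replicates 2, 3, and 4 the number called was 1, 1, and 3, and without No Dox replicate 1 it was 3. Among them were *Ccl7*, *Ccl12*, and *Ccl8*, neighbors on chromosome 11 that encode ligands of CCR2 and related receptors. *Ccl8* scored 105, 220, 30, and 115 at No Dox, and 382, 684, 547, and 1060 at 1wk WD. It rose 6.52-fold, with wide spread in both groups and no overlap (log2 fold change 2.71, SE 0.51, adjusted p = 0.0279). *Ccl7* scored 871, 825, 705, and 763, and then 3331, 2545, 1870, and 2450, and was the chemokine with the smallest adjusted p (log2 fold change 1.66, SE 0.24, adjusted p = 0.00914). *Ccl12* scored 1555, 2031, 3011, and 2112, and then 3559, 6355, 4955, and 5042, so that 1wk WD replicate 1 was close to No Dox replicate 3 (log2 fold change 1.20, SE 0.24, adjusted p = 0.0331, and 0.0519 without No Dox replicate 2).

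*Cxcl9*, which attracts T and natural killer cells through CXCR3 and is induced by interferon γ, scored 2404, 2442, 3043, and 1413 at No Dox, and 4663, 8348, 9010, and 14455 at 1wk WD. The groups did not overlap, and 1wk WD samples differed among themselves by more than the No Dox samples did (log2 fold change 1.91, SE 0.30, adjusted p = 0.0129). *Pf4*, platelet factor 4 or CXCL4, scored 853, 1176, 322, and 799, and then 2709, 2552, 2287, and 2915 (log2 fold change 1.87, SE 0.34, adjusted p = 0.0254). *Cxcl10*, another CXCR3 ligand, scored 2941, 3834, 5236, and 4603, and then 5738, 19357, 10525, and 7385. Its groups did not overlap, and it did not pass the test (log2 fold change 1.25, SE 0.33, adjusted p = 0.0866). Of the 23 chemokines 20 had a higher mean log2 score at 1wk WD, with a median of 0.66, and the ones furthest below 0 were *Cxcl14* (-1.60, adjusted p = 0.0942) and *Cx3cl1* (-0.77, adjusted p = 0.1). *Ccl2*, a ligand of CCR2, did not overlap but did not pass, with 3018, 2890, 3602, and 3004, and then 4484, 5700, 4229, and 4368 (0.58, SE 0.16, adjusted p = 0.088). None of 15 chemokine receptors passed the limma test (4 had an unadjusted p under 0.05). *Ccr7*, which guides cells to lymph nodes, came closest, with 3315, 1308, 1355, and 973 at No Dox, and 5097, 4123, 3023, and 3618 at 1wk WD (log2 fold change 1.33, SE 0.30, adjusted p = 0.0508).

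Among adhesion molecules and integrins, 1 of 29 genes rose and 1 fell (0.432% and 0.202% of all genes tested). *Vcam1*, which binds integrin α4β1 on leukocytes, scored 4759, 3745, 7484, and 4822 at No Dox, and 15724, 22425, 19505, and 20855 at 1wk WD. The groups were far apart, and the fold change was 3.86 (log2 fold change 1.95, SE 0.19, adjusted p = 0.0010). *Vcam1* is also known from endothelial cells. The summed score of 10 endothelial markers was 1759 to 2433 at No Dox and 2097 to 3134 at 1wk WD, and *Cdh5*, the cadherin of endothelial junctions, scored 57, 77, 2, and 4, and then 11, 43, 75, and 132. *Itgb8*, an integrin subunit that activates latent TGF-β, fell from 739, 471, 657, and 607 to 137, 193, 145, and 268 (log2 fold change -1.76, SE 0.28, adjusted p = 0.0154).

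Of 30 genes for scavenging and the uptake of dying cells, 1 rose and 1 fell (0.432% and 0.202% of all genes tested). The gene that rose was *Gas6*, whose bridging protein links phosphatidylserine on dead cells to the receptors AXL and MERTK. It scored 596, 864, 241, and 502 at No Dox, and 1558, 1711, 1516, and 1680 at 1wk WD, with little spread at 1wk WD (log2 fold change 1.69, SE 0.30, adjusted p = 0.0254). *Gas6* was also the only one of 32 growth factor genes called (0.432% of all genes were called higher). *Igf1*, insulin-like growth factor 1, scored 2586, 5271, 3063, and 2793, and then 5298, 7037, 5838, and 8926, with 1wk WD replicate 1 just above No Dox replicate 2 (log2 fold change 1.01, SE 0.23, adjusted p = 0.0508). *Igfbp4*, which binds IGF and limits its action, rose from 376, 332, 371, and 470 to 1145, 1031, 1083, and 1064 (log2 fold change 1.49, SE 0.18, adjusted p = 0.0047). *Stard13*, which stood on the uptake list, fell from 3729, 4127, 3267, and 2889 to 1966, 1165, 1581, and 1432 (log2 fold change -1.20, SE 0.18, adjusted p = 0.0117). *Igfbp4* was on no list, and it, like the further genes of this kind named below, was chosen after its values were seen.

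A pair of matrix metalloproteinases that lie near each other on chromosome 9 went in opposite directions. *Mmp13*, a collagenase, scored 3688, 3940, 5226, and 3611 at No Dox, and 9908, 8586, 6624, and 7805 at 1wk WD, with 19661 and 14086 in the 2 samples taken at 1wk Dox. It just reached the 2-fold threshold (log2 fold change 1.00, SE 0.17, adjusted p = 0.0172). *Mmp12*, the MΦ elastase, scored 7315, 6793, 9475, and 6070 at No Dox, and 2624, 2983, 2433, and 5501 at 1wk WD, with 12447 and 11514 at 1wk Dox. All 1wk WD samples lay below all No Dox samples (log2 fold change -1.19, SE 0.23, adjusted p = 0.0296), and below both 1wk Dox samples (log2 fold change -1.90, adjusted p = 0.0324, in a comparison in which 0.101% of genes were called). The other 33 matrix remodeling enzymes and inhibitors tested did not pass (between 1wk WD and No Dox 0.432% of all genes were called higher and 0.202% lower).

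Cytokines and their regulators had 2 rises among 34 interleukin and TNF family genes (0.432% of all genes tested rose). *Il10*, the gene of an anti-inflammatory cytokine, scored 2374, 2127, 3243, and 1032 at No Dox, and 4567, 9107, 6044, and 4837 at 1wk WD (log2 fold change 1.54, SE 0.32, adjusted p = 0.0404). It was called in 2 of the 8 fits that left out 1 sample, and its adjusted p reached 0.132 in them. *Il18bp*, which neutralizes IL-18, rose from 528, 674, 641, and 482 to 1089, 1597, 1540, and 1899, and was called in all 8 (log2 fold change 1.38, SE 0.19, adjusted p = 0.00691). *Tnf* scored 5176, 6267, 7279, and 7358, and then 7085, 11975, 8423, and 6575, with overlapping groups (log2 fold change 0.36, SE 0.21, adjusted p = 0.406). *Il1a* (299 to 897 and 343 to 880) and *Il12b* (1380 to 1598 and 1230 to 1977) overlapped, at log2 fold changes of 0.22 and 0.09 (adjusted p = 0.809 and 0.846). *Il6* overlapped as well, with 51 to 97 at No Dox and 79 to 270 at 1wk WD (1.02, SE 0.43, adjusted p = 0.247).

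Genes of the alternative activation state, which is linked to tissue repair, had 2 rises in 23, *Il10* and *Ptgs1*, and pro-inflammatory genes had 1 in 18, *Cxcl9*, where 0.432% of all genes tested rose. *Il10*, as said above, was called in 2 of the 8 fits that left out 1 sample. *Ptgs1*, cyclooxygenase 1, makes the precursor of prostaglandins, and all 4 of its 1wk WD samples (5124 to 5994) lay above the No Dox samples (1934 to 2857). The members of the first list furthest below 0 included *Chi3l3*, a chitinase-like protein typical of alternatively activated mouse MΦs. It scored 488, 469, 732, and 835 at No Dox, and 298, 359, 226, and 304 at 1wk WD, and the non-overlapping difference fell short of the test (log2 fold change -1.06, SE 0.26, adjusted p = 0.0649). *Retnla*, another gene typical of that state, overlapped, with 85, 19, 122, and 57 at No Dox, and 41, 108, 177, and 421 at 1wk WD (log2 fold change 1.20, SE 0.70, adjusted p = 0.4). *Tgfb1*, with 5671 to 8121 and then 6927 to 7421, had a 95% interval of the log2 fold change that ran from -0.18 to 0.36. *Fn1*, fibronectin, overlapped between the groups, with 15691 in 1wk WD replicate 4 and 5679 to 8583 in the others (log2 fold change 0.30, SE 0.28, adjusted p = 0.609). *Alox15*, the lipoxygenase of resident peritoneal MΦs, had the largest log2 fold change of any member of the function lists (4.19). It scored 1, 19, 45, and 1, and then 50, 167, 68, and 694, and did not pass (SE 1.11, adjusted p = 0.0854). With a No Dox mean of 16.5, *Alox15* passed the minimum mean score only through 1wk WD, where it was high. Nothing is therefore read from its test or from the size of its fold change.

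Genes induced by interferons leaned toward 1wk WD. Of 30 interferon-stimulated genes, all 30 had a higher mean log2 score at 1wk WD (median 0.43), 1 was called (0.432% of all genes were called higher), and 10 had non-overlapping groups, all higher (5.01% of all genes). The called gene was *Gbp2*, one of the guanylate-binding proteins, GTPases that coat intracellular pathogens. It scored 1003, 578, 971, and 499 at No Dox, and 1304, 2375, 2671, and 3225 at 1wk WD (log2 fold change 1.64, SE 0.29, adjusted p = 0.0223). *Irf7*, a transcription factor of the interferon response, missed the fold change of 2 only, with 671, 647, 511, and 872, and then 1584, 1370, 1262, and 1123 (log2 fold change 1.00, SE 0.19, adjusted p = 0.028). *Isg15* scored 304, 250, 269, and 520, and then 506, 1188, 923, and 525, and overlapped (1.19, SE 0.32, adjusted p = 0.0909).

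A pair of GTPase families was followed up after these values were seen, and is described without a test of the families. Of 11 guanylate-binding proteins tested, 3 were called, all higher, 5 had non-overlapping groups, and the median log2 fold change was 1.16. Besides *Gbp2* these were *Gbp6*, which rose from 233, 73, 242, and 120 to 519, 593, 660, and 817 (2.09, SE 0.36, adjusted p = 0.0211), and *Gbp7*, which rose from 2030, 1349, 2106, and 1215 to 2596, 3727, 3876, and 4637 (1.16, SE 0.21, adjusted p = 0.0254). *Gbp10* and *Gbp11*, with No Dox means of 9.5 and 18.25, passed the minimum mean score only through 1wk WD, where they were high. Nothing is read from their tests, but both enter the median, and *Gbp11* is among the 5 with non-overlapping groups. Of 9 immunity-related GTPases, which act on the membranes around intracellular pathogens, 2 were called, 8 had non-overlapping groups, and the median was 0.90. *Iigp1* rose from 285, 128, 399, and 307 to 587, 955, 1053, and 1481 (1.90, SE 0.34, adjusted p = 0.0254), and *Ifi47* from 1566, 1501, 1596, and 1685 to 2731, 2887, 3296, and 3917 (1.00, SE 0.13, adjusted p = 0.0055). *Gbp2* and *Gbp7* lie near each other on chromosome 3, and members of these families are similar in sequence, so reads could be shared between them. Of all genes tested, 0.432% were called higher and 5.01% had non-overlapping groups and were higher. *Gbp2*, *Gbp6*, *Gbp7*, and *Iigp1* were not called without 1wk WD replicate 2, 3, or 4, and *Ifi47* was not called without No Dox replicate 1 or 2 or 1wk WD replicate 3 or 4. In each of these families replicate 1 was the lowest 1wk WD sample for all of the called genes.

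The serine protease inhibitors *Serpina3f* and *Serpina3g*, neighbors on chromosome 12, rose as well. *Serpina3g*, an inhibitor of cathepsins, scored 482, 357, 183, and 329 at No Dox, and 697, 1382, 1281, and 1624 at 1wk WD (log2 fold change 1.90, SE 0.31, adjusted p = 0.0154), and *Serpina3f* scored 175, 97, 47, and 86, and then 240, 476, 576, and 718 (2.34, SE 0.41, adjusted p = 0.0247). They are close paralogs, so reads could be shared between the pair. Promoters were searched for a pair of motifs known from interferon responses, because several of the rises above are interferon-inducible genes. The motifs were the interferon-stimulated response element, searched as GAAA, any 2 bases, and GAAA again, and the γ-activated site, searched as TTC, any 3 bases, and GAA, on both strands of the 250 bases upstream of each RefSeq start (GRCm38.p6 table). A promoter was at hand for 41 of the 64 genes that rose and 24 of the 30 that fell. The first motif was found in 3 of the 41 (*Gbp2*, *Gbp7*, and *Mmp13*) and in 0 of the 24, and 3.46% of all 27025 genes with a promoter hold it. The second was found in 6 of the 41 (*Gbp7*, *Gdpd1*, *Nfkb2*, *Serpina3f*, *Serpina3g*, and *Trim30c*) and in 1 of the 24 (*Plcb1*), against 8.13% of all genes. A match says only that these letters occur there. The promoters of *Gbp7* and of the serpin pair are shown because they hold the matches, which are in capitals. They were located in NCBIM37, the mm9 assembly, by exact match on the + strand, at chr3:142193050-142193299, chr12:105452504-105452753, and chr12:105474107-105474356.
Gbp7: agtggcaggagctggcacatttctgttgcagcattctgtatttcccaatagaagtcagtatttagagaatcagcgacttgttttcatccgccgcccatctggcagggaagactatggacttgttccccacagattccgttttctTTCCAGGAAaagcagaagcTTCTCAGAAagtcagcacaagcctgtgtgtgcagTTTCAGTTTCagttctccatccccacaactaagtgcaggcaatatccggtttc
Serpina3f: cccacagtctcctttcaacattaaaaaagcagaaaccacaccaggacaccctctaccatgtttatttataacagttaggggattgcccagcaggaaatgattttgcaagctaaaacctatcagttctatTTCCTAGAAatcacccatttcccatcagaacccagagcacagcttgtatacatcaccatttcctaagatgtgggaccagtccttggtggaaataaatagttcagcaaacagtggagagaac
Serpina3g: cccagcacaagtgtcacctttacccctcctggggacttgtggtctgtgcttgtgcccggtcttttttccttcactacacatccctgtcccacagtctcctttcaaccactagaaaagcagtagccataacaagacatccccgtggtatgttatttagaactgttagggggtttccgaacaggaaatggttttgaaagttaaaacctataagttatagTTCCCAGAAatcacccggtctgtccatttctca
*Gbp7* holds both motifs, the first from base 53 before the start and the second from bases 106 and 87, and the serpins hold the second alone, from base 121 in *Serpina3f* and base 33 in *Serpina3g*.

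The strongest rise by adjusted p was that of *Sema6d*, a transmembrane semaphorin that signals through plexins. It scored 1007, 970, 604, and 694 at No Dox, and 3491, 2936, 2855, and 2974 at 1wk WD, a 3.81-fold rise with no overlap (log2 fold change 1.93, SE 0.17, adjusted p = 0.00084). *Npl*, a lyase that breaks down sialic acid, rose from 933, 898, 882, and 1011 to 2116, 1960, 2138, and 2020, and *Cd38*, an ectoenzyme that consumes NAD, from 1022, 1237, 1221, and 682 to 2380, 2873, 2374, and 3405. The groups did not overlap in either gene, and those of *Npl* were narrow (log2 fold changes 1.15 and 1.43, adjusted p = 0.00182 and 0.00691). *Spic*, the transcription factor of iron-recycling MΦs in the spleen, scored 544, 1118, 1903, and 1002, and then 3246, 4152, 2301, and 3159 (log2 fold change 1.60, SE 0.30, adjusted p = 0.0281). It was called among 26 genes for MΦ transcription factors and the CSF1 axis and among 19 heme and iron genes, with no other call in either list (0.432% of all genes were called higher). *Hmox1*, heme oxygenase 1, which was named after its values were seen, passed the adjusted p alone, with 2466, 3422, 2531, and 3270, and then 4840, 6094, 4163, and 6101 (log2 fold change 0.86, adjusted p = 0.0335).

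Lysosomal genes leaned upward with few calls. Of 32, only *Atp6v0d2*, a subunit of the proton pump, was called (0.432% of all genes were called higher), from 37, 27, 6, and 30 to 79, 150, 138, and 134 (log2 fold change 2.48, SE 0.55, adjusted p = 0.0474). It was called in 1 of the 8 fits that left out 1 sample. In 13 of the 32 the groups did not overlap, all higher at 1wk WD (5.01% of all genes), and 28 had a higher mean log2 score. *Ctsb*, the protease cathepsin B, passed the adjusted p but not the fold change, with 21499, 22660, 21712, and 26316 at No Dox, and 36557, 45869, 38644, and 43370 at 1wk WD (log2 fold change 0.83, SE 0.14, adjusted p = 0.0178). The 1wk Dox samples scored 79830 and 60112. *Siglec1*, the sialic acid-binding receptor CD169 of tissue MΦs, rose from 4811, 4236, 3016, and 3857 to 8602, 6868, 8096, and 8511 (1.03, SE 0.16, adjusted p = 0.0129), and *Dnase1l3*, a nuclease that digests DNA of dead cells, from 1267 to 2024 up to 3037 to 4382 (1.20, SE 0.18, adjusted p = 0.0129). Single calls also came from *Ier3*, an immediate early gene (1.47, SE 0.24, adjusted p = 0.0154, 1 of 28), and *Tlr12*, which senses profilin of parasites (1.29, SE 0.22, adjusted p = 0.0178, 1 of 20 genes for toll-like receptors and signaling), beside the same 0.432% of all genes.

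The called gene with the largest rise, *Gxylt2*, a xylosyltransferase that modifies Notch, was at the floor of the scale in No Dox. It scored 1, 2, 1, and 1, and then 136, 19, 72, and 10, with 84 and 56 at 1wk Dox. It passed the minimum mean score of 20 only through 1wk WD, where it was high, so nothing is read from its test, and how large a fold change this is cannot be read from scores at the floor. *Mab21l3* rose from 39, 41, 16, and 26 to 139, 143, 141, and 160 (2.31, SE 0.42, adjusted p = 0.0256), and *Insl6*, a member of the insulin-like family, from 45, 15, 42, and 20 to 133, 210, 150, and 142 (2.46, SE 0.43, adjusted p = 0.0223). The gene model *Gm17723* rose from 6 to 30 up to 81 to 175 (2.69, SE 0.56, adjusted p = 0.0404), and was called in 3 of the 8 fits that left out 1 sample. *Postn*, periostin, a matrix protein made by fibroblasts, rose from 171, 150, 73, and 112 to 273, 1026, 671, and 414 (2.12, SE 0.44, adjusted p = 0.0416). Beside it, *Col3a1*, a defining stromal gene, scored 558, 2331, 1322, and 828 in the same 1wk WD samples and 129 to 1034 at No Dox. The 10 stromal and pericyte markers summed to 3178 to 6207 at No Dox and 2963 to 11462 at 1wk WD, all 10 had a higher mean log2 score at 1wk WD (median 1.05), and 0 were called by limma (5 had an unadjusted p under 0.05). Their part in the rise of *Postn*, and in the rises of complement genes, chemokines, serpins, and *Gas6*, was not tested.

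Among the 15 largest falls of the 30 genes that were lower at 1wk WD were *Il28ra*, *Gna14*, *Plcb1*, and *Gnai1*. *Il28ra*, the receptor chain for type III interferons, scored 1065, 1088, 1028, and 617 at No Dox, and 234, 143, 180, and 303 at 1wk WD, a fall of 2.16 on the log2 scale (SE 0.28, adjusted p = 0.0055). *Gna14*, a G protein subunit of the Gq family, fell from 546, 1038, 579, and 489 to 201, 168, 188, and 181 (log2 fold change -1.78, SE 0.26, adjusted p = 0.00914). *Plcb1*, the phospholipase that Gq proteins activate, fell from 1746, 2296, 1986, and 1167 to 918, 545, 480, and 647 (-1.47, SE 0.26, adjusted p = 0.0244). In these 3 genes the highest 1wk WD sample stayed below the lowest No Dox sample. *Gnai1*, an inhibitory G protein subunit, had the largest fall among the called genes, from 68, 935, 206, and 236 to 18, 27, 42, and 17 (-3.23, SE 0.69, adjusted p = 0.0424). Its highest score was in No Dox replicate 2, the sample with 24.7% acinar markers, and without that sample it was not called (-2.57, adjusted p = 0.0565).

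The smallest adjusted p among the falls belonged to *Apbb2*, an adaptor that binds the amyloid precursor protein. Its No Dox samples were close together, at 2414, 2317, 2400, and 2505, and its 1wk WD samples scored 1086, 755, 1065, and 874 (log2 fold change -1.36, SE 0.15, adjusted p = 0.00182). *Kctd14* fell from 2293, 2004, 2056, and 1648 to 602, 316, 618, and 632 (-1.93, SE 0.23, adjusted p = 0.00474). *Arhgap24*, which switches off the GTPase Rac, fell from 6219, 5457, 4669, and 4038 to 2582, 1161, 1345, and 1518 (-1.68, SE 0.22, adjusted p = 0.0055). All 3 were called whichever sample was left out. *St3gal5*, the synthase of the ganglioside GM3, fell from 2630 to 3506 to 1120 to 1490 (-1.13, SE 0.15, adjusted p = 0.0055), *Hs3st3a1*, which sulfates heparan sulfate, from 366 to 1058 to 140 to 216 (-1.90, SE 0.31, adjusted p = 0.0172), and *Bcl2*, which restrains apoptosis, from 6654 to 10750 to 3625 to 5741 (-1.04, SE 0.17, adjusted p = 0.0178). *Dach1*, *Fgf13*, *Kcnq3*, *Tcte2*, *Vps37d*, and *Zfp599* completed the 15 largest falls together with those named above, at log2 fold changes of -1.54, -1.65, -1.43, -1.36, -2.65, and -1.27. *Vps37d* was called in 0 of the 8 fits that left out 1 sample, and it passed the minimum mean score only through No Dox, where it was high.

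Besides chemokine receptors, 3 function lists had no call by limma. They were the 13 genes of MHC class II presentation, the 30 proliferation genes, and the 27 lipid handling genes, with 5, 6, and 11 at an unadjusted p under 0.05 (17.4% of all genes), of which 0, 3, and 2 also differed 2-fold (4.92%). Among MHC class II genes the largest difference was that of *H2-DMb2*, a chain of the peptide-loading H2-DM, with 1347, 1286, 820, and 1913 at No Dox, and 2005, 2257, 2703, and 2279 at 1wk WD (log2 fold change 0.84, SE 0.21, adjusted p = 0.0755). *Cd74*, the invariant chain, overlapped with a log2 fold change of 0.09. Among proliferation genes *Ube2c*, a ubiquitin-conjugating enzyme of mitosis, came closest, with 247, 138, 80, and 197, and then 391, 431, 521, and 397 (1.50, SE 0.34, adjusted p = 0.0522). Medians of these lists were 0.41, 0.27, and 0.35 in the order given.

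**Figure D4:**
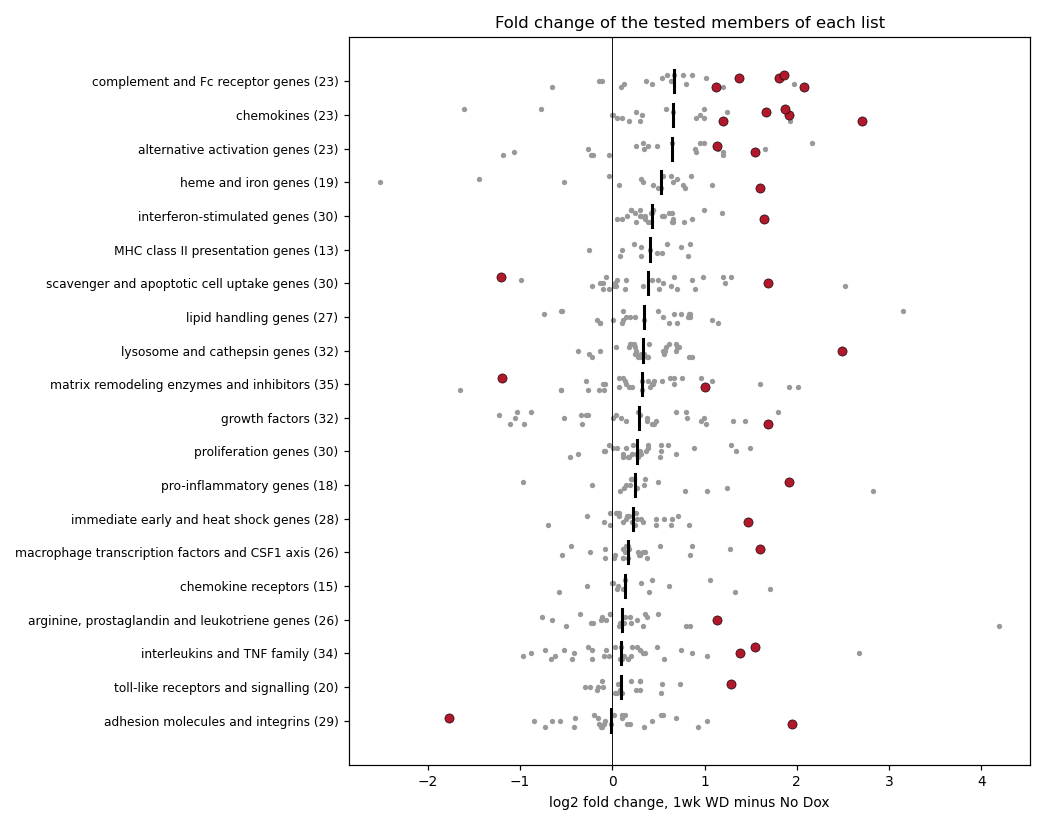
Each point is a tested member of a function list, with its log2 fold change, 1wk WD minus No Dox, on the x axis; large red points passed the test, small gray points did not, and black bars are list medians. Numbers beside the names give the members tested; complement and Fc receptor genes (median 0.67) and chemokines (0.66) hold 5 calls each, and adhesion molecules and integrins have a median of -0.02.

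Markers of other cell types were followed because a CD11b+ sort can hold other cells. Of 9 T and natural killer cell markers tested, 1 was called (0.432% of all genes were called higher), *Cd4*, which rose from 915, 1442, 970, and 861 to 2019, 3247, 3010, and 3904 (log2 fold change 1.53, SE 0.21, adjusted p = 0.00691). *Cd4* is known from some MΦs as well as from T cells. *Cd3e*, a chain of the T cell receptor complex, scored 9 to 154 at No Dox and 28 to 221 at 1wk WD, and *Cd3g* was below the minimum score. *Ncr1*, a receptor of natural killer cells, scored 64 to 635 and then 88 to 843. All 9 had a higher mean log2 score at 1wk WD (median 0.74), with the largest differences in *Trbc2* (2.25, SE 0.90, adjusted p = 0.227) and *Gzma* (1.96, SE 1.18, adjusted p = 0.412), whose groups overlapped. *Trbc2*, with a No Dox mean of 15.25, passed the minimum mean score only through 1wk WD, where it was high. Nothing is read from its test, although it counts among the 9. The summed score of the list was 1566 to 2563 at No Dox and 3839 to 5909 at 1wk WD. Without *Cd4* the sum of the other 9 listed markers was 521 to 1648 and 775 to 2662, and the groups overlapped. *Cd22*, an inhibitory receptor that stood among 8 B cell markers, rose from 581 to 1086 up to 1623 to 1809 (1.10, SE 0.18, adjusted p = 0.016), while the summed B cell markers overlapped (8335 to 13846 and 10168 to 16773). Neutrophil markers summed to 8293 to 10742 and 8651 to 14532, and 4 of the 8 tested had a higher mean log2 score at 1wk WD (median 0.05). *S100a9*, an abundant neutrophil protein, scored 872 to 1815 at No Dox and 1151 to 1739 at 1wk WD, *Retnlg* scored 29 to 220 and 195 to 364, and *Ly6g* and *Camp* were below the minimum score. Summed monocyte markers (88537 to 105930 and 80252 to 101077) and dendritic cell markers (53560 to 70550 and 47625 to 68735) overlapped as well. Of 10 tested in each list, 2 and 4 had a higher mean log2 score at 1wk WD (medians -0.26 and -0.07). By limma 0 were called, and 2 and 5 had an unadjusted p under 0.05 (17.4% of all genes). Groups did not overlap in *Chi3l3*, *Flt3* (5443 to 7609 and then 3819 to 5035), and *Btla* (3408 to 7017 and then 2315 to 3357), all lower. They did not overlap in *H2-DMb2* either, which was higher (4.32% of all genes were lower and 5.01% higher). β cell markers summed to 47759 in No Dox replicate 2, 1975 to 7095 in the other No Dox samples, and 3636 to 7025 at 1wk WD. Of the 8 tested, 0 had a higher mean log2 score at 1wk WD (median -0.66). Markers of other islet cells summed to 35440 in No Dox replicate 2, 3763 to 10095 in the other No Dox samples, and 2818 to 6688 at 1wk WD, and 1 of 6 had a higher mean (median -1.54). *Gcg*, the gene of glucagon, scored 138, 22058, 5805, and 1869, and then 295, 123, 988, and 214. By limma 0 genes of both lists were called (0 and 1 had an unadjusted p under 0.05). What share these cells have in the differences above was not tested.

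**Figure D5:**
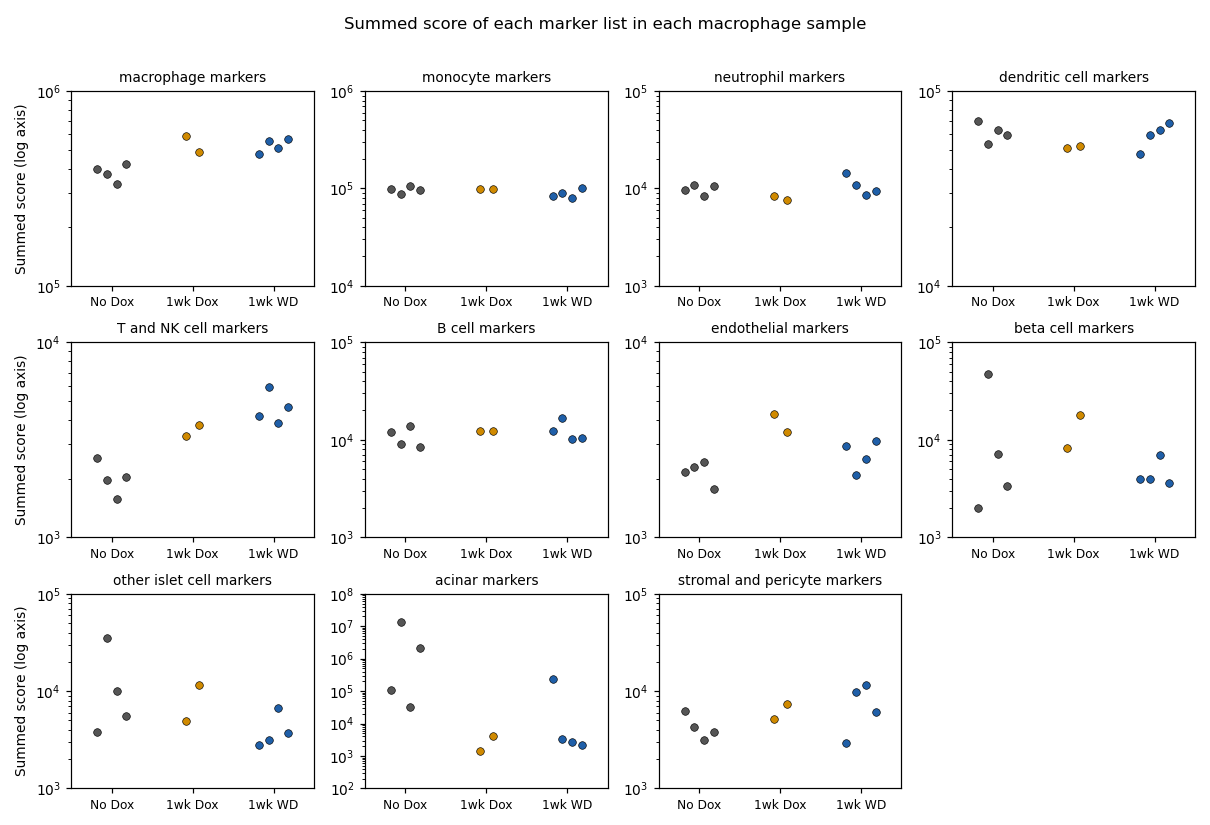
Summed score of each of the 11 marker lists (log axis) in each No Dox, 1wk Dox, and 1wk WD MΦ sample, 1 point a sample. MΦ markers and T and natural killer cell markers were higher in all 4 1wk WD samples than in all 4 No Dox samples, the second list only with *Cd4* included (521 to 1648 and 775 to 2662 without it), and acinar markers ran from 32879 to 13179708 within No Dox.

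Values at 1wk Dox are set beside those above for the genes that the account turns on, with the caution that this time point had 2 samples and is compared with the same No Dox samples. *Vcam1* scored 16233 and 15948 at 1wk Dox, *Sema6d* 3470 and 3077, and *Ptgs1* 6197 and 7327, which is near or above their 1wk WD scores. *Cfb* scored 266 and 300, and *C3* 4842 and 4530, so the mean of *Cfb* was higher at 1wk Dox (283) than at 1wk WD (199.5) and that of *C3* was lower (4686 against 7673). For chemokines, *Ccl7* scored 5712 and 2456, *Ccl8* 419 and 321, and *Cxcl9* 6528 and 7662. *Il28ra* scored 139 and 179 and *Apbb2* 1115 and 1323, both below every No Dox sample. In none of these 10 genes was 1wk WD called different from 1wk Dox, and only 0.101% of all genes tested were called so. This does not show that the 10 genes were alike at both time points.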

How the data were processed

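Islet MΦs were sorted as CD11b+ cells, and their RNA was amplified (NuGEN Ovation) and sequenced as 50 bp paired-end reads. The authors aligned the reads to mm9 with TopHat 2.0 and normalized by TMM in Avadis NGS. What the authors deposited is a score per gene, the normalized expression as a whole number from 1 upward. Reads cannot be recovered from them, so depth and the precision of low scores are unknown. The table holds 22850 genes in 38 sample columns, of which 32 were used and 6 were not used here, because they belong to another series.

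Scores of all 10 MΦ samples (4 No Dox, 2 1wk Dox, 4 1wk WD) were fitted as log2(score + 1) with limma 3.58.1 in R 4.3.3, with a trend of the spread on mean expression and a shared spread, over the 14821 genes whose mean score reached 20 at No Dox or 1wk WD. The test was two-sided and adjusted by Benjamini-Hochberg over all 14821 genes, and a gene was called when it differed at least 2-fold with an adjusted p under 0.05. The fit was tested on simulated data. Fold changes are on the log2(score + 1) scale, which understates those of low genes. P-values set the difference between groups against the spread between samples, each a pool of mice. That spread was drawn toward the trend over all genes and also used the 2 1wk Dox samples.

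Named genes were the 15 largest rises and falls among called genes, called list members, the 3 largest changes of each list, *Csf1r*, *Mrc1*, and genes the study names for MΦs; of the list members named by size of change, those that were not called are given only in part, and other genes were chosen after their values were seen. The samples, lists, and rules were chosen with earlier results of these data known. Function lists held 13 to 35 tested genes. Sequences came from RefSeq (GRCm38.p6), located in NCBIM37. Alternatives were other pseudocounts (0.1, 20), filters, scalings, and designs, and samples left out. Python 3.11.15, pandas 2.3.3, numpy 2.4.6, and matplotlib 3.10.9 were used. The minimum RNA integrity number differs between the labels and the methods.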

Additional observations from a re-analysis of the deposited data

Results flagged for a closer look

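In groups of 4 samples, the score of 1 sample stood apart from the others by Dixon's criterion on the log2(score + 1) scale in 11 of 256 groups examined (117 genes and 11 marker lists in both groups), where chance flags about 1 in 20. For genes at 1wk WD, *Mrc1* scored 79570 in replicate 4 and 70507 to 71880 in the others, and *Itgam* scored 29800 in replicate 1 and 20309 to 21281 in the others. *Kctd14* scored 316 in replicate 2 against 602 to 632, and *Itsn1*, an endocytic scaffold, scored 3160 in replicate 4 against 2732 to 2792. The gene model *Gm10874* scored 1251 in replicate 1 against 833 to 876. At No Dox, *Il28ra* scored 617 in replicate 4 against 1028 to 1088, and *Fgf13* scored 2266 in replicate 3 against 887 to 1017. The gene model *2010110P09Rik* scored 168 in No Dox replicate 2 against 86 to 92, and *Gxylt2* scored 2 there against 1 in the other samples, a difference of 1 step at the floor of the scale. Among marker lists at 1wk WD, β cell markers summed to 7025 in replicate 3 against 3636 to 3954, and acinar markers to 232149 in replicate 1 against 2200 to 3255.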

How the results depend on the processing

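Counts of differentially expressed genes moved between the alternatives, and all 94 genes kept their direction in every alternative in which they were tested. This was largely fixed in advance, because the groups of all 94 did not overlap and most alternatives cannot reverse such a sign. Only median-of-ratios scaling and quantile normalization could have done so. Against 94 genes (64 higher, 30 lower), keeping genes with low scores gave 11 (9 and 2), a spread without a trend 10 (6 and 4), only the 8 samples 49 (29 and 20), and an unadjusted p 729 (386 and 343). Leaving out 1 of the 8 samples gave 23 to 125 genes, with 12 to 79 higher and 8 to 58 lower. The 58 came without 1wk WD replicate 1, and the lowest counts without 1wk WD replicates 2, 3, and 4 (15 and 8, 12 and 11, and 18 and 15). Leaving out either 1wk Dox sample, which was added after seeing the data, gave 65 genes, of which 42 were higher without replicate 5. Pseudocounts of 0.1 and 20, minimum means of 200 or of 20 at any time point, median-of-ratios scaling, and quantile normalization gave 88 to 119, and the causes of these shifts were not tested. With the replicate number as a block the count was 69 (47 higher, 22 lower), and 62 of the 94 genes were among them; samples with the same number did not deviate together (correlations of -0.114 to 0.0639), so they share only a number. Depth is unknown, which limits what can be said of low scores.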
